A study of Mus musculus with 6 samples.

Results

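A set of 10 genes used as markers of pericytes and vascular smooth muscle was examined in bulk RNA from chondrocyte preparations of Girk3-null and wild type mice. They were taken by gene name, Acta2, Tagln, Myh11, Cnn1, Myl9, Mylk, Cspg4, Pdgfrb, Notch3 and Higd1b, and all 10 were found among the 43346 genes listed. The 3 libraries of the Girk3 KO group came from mice of genotype Girk3-/-, which lack Girk3, a subunit of G protein-gated inwardly rectifying potassium channels encoded by Kcnj9, and the 3 libraries of the WT group came from wild type mice. All 6 animals were 5 days old, of C57BL/6 background and male per the labels, and all gave epiphyseal chondrocytes freed by collagenase from the ends of growing bones. No driver that would limit the null allele to 1 cell type is named, and no agent was given.

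Total counts ranged from 34279516 to 60392837 per library. Kcnj9 had 0 counts in all 6 libraries, so it checked no genotype label. Of the 6 libraries labelled male, only Girk3 KO replicate 1 had the transcripts of that sex: its 4 Y-linked genes summed to 16088 counts, against 0 to 7 in the other 5, and it had 19 Xist counts, against 67346 to 144825. Sex as the transcripts show it is thus unequal between the groups. Fold changes of most of the 10 genes are given with and without Girk3 KO replicate 1, and those of further genes only in part. The part of sex in any of these results was not tested. The labelled cell type had its defining transcripts: 8 chondrocyte markers headed by Col2a1, Acan and Sox9 summed to 67980 to 113252 CPM (counts scaled to library size and by the trimmed mean of M-values, TMM) in Girk3 KO and 43764 to 76310 CPM in WT libraries, and none was at 0. Markers of vessels were present as well. A list of 10 endothelial markers including Pecam1, Cdh5 and Kdr summed to 32.3 to 118 CPM in Girk3 KO and 145 to 239 CPM in WT libraries, with none at 0.

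Pericytes and smooth muscle cells, together called mural cells, wrap blood vessels. Smooth muscle cells hold a contractile apparatus of smooth muscle actin (Acta2) and smooth muscle myosin heavy chain (Myh11), which pulls when Mylk, the myosin light chain kinase, phosphorylates the regulatory light chain. Pericytes are recruited when endothelial PDGF-B binds the receptor Pdgfrb, and Notch3 receives signals from ligands on the endothelium. Cartilage itself is largely without vessels, but the tissue around it is supplied by them, and none of these genes is made by mural cells alone: Cspg4, the NG2 proteoglycan, is also known from chondrocytes, Pdgfrb from fibroblasts and perichondrium, and Acta2 and Tagln from myofibroblasts.

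The levels per length set Cspg4 apart. In the deposited RPKM, which scale reads by gene length and library size, Cspg4 averaged 115 ± 36.3 over the 6 libraries (SD) and stood above 98.0% of the 17554 genes tested. Next came Acta2 at 19.2 ± 7.86, Pdgfrb at 15.1 ± 1.87 and Tagln at 14.6 ± 6.76 RPKM, whose ranges overlapped. Myl9 followed at 6.04 ± 3.69, then Notch3 at 3.33 ± 0.357 and Mylk at 2.68 ± 0.421 RPKM, each overlapping its neighbour. Myh11 (0.958 ± 0.538), Cnn1 (0.405 ± 0.247) and Higd1b (0.240 ± 0.253 RPKM) were lowest, with overlapping ranges. Cspg4 lay above Acta2 and Mylk above Myh11 without overlap, in 6 of 6 libraries each. The smooth muscle heavy chain Myh11 stood below the non-muscle heavy chain Myh9, which averaged 46.5 RPKM over the 6 libraries.

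**Figure D1:**
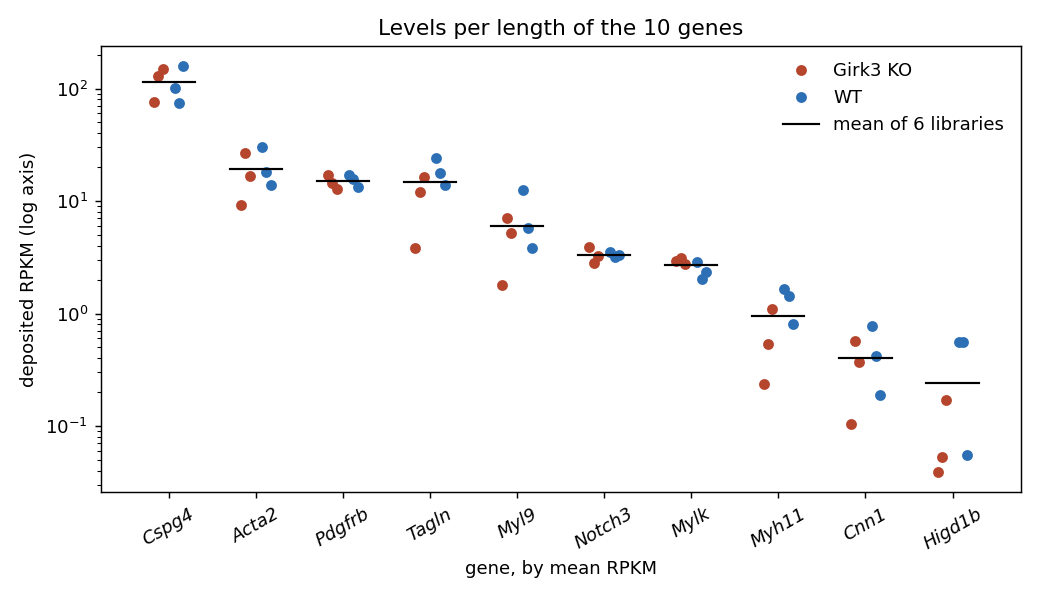
Deposited RPKM (log axis) of each of the 10 genes, ordered by mean, with a point for each Girk3 KO and each WT library and a line at the mean of 6 libraries. Cspg4 lies at 74.7 to 158 RPKM, above every other gene, and Higd1b at 0.0391 to 0.562 RPKM.

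Between genotypes, 0 of the 9 tested genes had an adjusted p under 0.05 by the quasi-likelihood test of edgeR, and 0 had one in DESeq2 or limma-voom. Of all 17554 tested genes, 0.0057% passed in edgeR (1 gene), 0.0% in limma-voom, and 2.24% of the 15171 with an adjusted p in DESeq2. Mylk alone had an unadjusted p under 0.05, where 14.5% of all tested genes had one in edgeR. Higd1b had too few counts to be tested. Of the 9 tested genes, 4 had a positive and 5 a negative log2 fold change (Girk3 KO over WT), with a median of -0.11, beside a median of 0.01 over all tested genes. The median without Girk3 KO replicate 1 was -0.02. In bulk RNA, fewer cells of a type and less RNA per cell cannot be told apart.

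Among the filament proteins, Acta2 (chr19:34241090-34255336, mm10 as for all positions here) had 16.9, 49.2 and 32.0 CPM in Girk3 KO replicates 1, 2 and 3, against 50.3, 29.98 and 25.7 CPM in WT replicates 1, 2 and 3. Girk3 KO replicates 2 and 3 lay within the WT range, and Girk3 KO replicate 1 was the lowest of the 6. The log2 fold change was -0.11 ± 0.37 (SE; adjusted p = 0.904 in edgeR), and it was 0.20 without Girk3 KO replicate 1 and 0.23 without WT replicate 1. Tagln (chr9:45929628-45936058), which encodes the actin-binding protein transgelin, had 6.18, 19.5 and 27.9 CPM in Girk3 KO libraries, against 35.9, 26.1 and 22.6 CPM in WT libraries. Girk3 KO replicates 1 and 2 lay below all WT libraries, and replicate 3 lay within the WT range. Its log2 fold change was -0.67 ± 0.45 (SE; adjusted p = 0.487 in edgeR), and it was -0.25 without Girk3 KO replicate 1 and -1.14 without Girk3 KO replicate 3. Tagln overlaps Pcsk7 on the opposite strand, which had 7074 counts over the 6 libraries beside 6148 for Tagln, and whether counting used strand is not given in the sources used here. Cnn1 (chr9:22099281-22109630), a calponin that binds actin and slows the myosin ATPase, had only 15, 60 and 30 counts in Girk3 KO libraries and 82, 50 and 19 in WT libraries. That is 0.253, 1.38 and 0.935 CPM in Girk3 KO libraries, against 1.74, 0.920 and 0.464 CPM in WT libraries, with Girk3 KO replicates 2 and 3 inside the WT range (log2 fold change -0.31 ± 0.64, SE; adjusted p = 0.836 in edgeR).

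Both myosin subunits repeated the low value of Girk3 KO replicate 1. Myh11 (chr16:14194527-14291408), the heavy chain of smooth muscle, had 1.59, 3.62 and 7.79 CPM in Girk3 KO libraries, against 10.2, 8.83 and 5.49 CPM in WT libraries. Girk3 KO replicates 1 and 2 lay below all WT libraries, and replicate 3 lay within their range. It had the largest difference of the 9 tested genes, with a log2 fold change of -0.94 ± 0.50 (SE; 95% interval -2.08 to 0.20, adjusted p = 0.395 in edgeR). That value was -0.53 without Girk3 KO replicate 1 and -1.66 without Girk3 KO replicate 3. Myl9 (chr2:156775420-156781658), the smooth muscle regulatory light chain, had 2.14, 8.41 and 6.48 CPM in Girk3 KO libraries, against 13.8, 6.22 and 4.54 CPM in WT libraries. Girk3 KO replicates 2 and 3 lay inside the WT range. The log2 fold change was -0.53 ± 0.53 (SE; adjusted p = 0.639 in edgeR), and it was -0.13 without Girk3 KO replicate 1 and 0.069 without WT replicate 1. Acta2 has closely similar paralogues (Actg2, Acta1, Actc1), as has Myl9 (Myl12a, Myl12b), and how reads shared with them were counted is not given in the sources used here.

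On the TMM-scaled CPM, Acta2, Tagln, Myh11, Cnn1, Myl9 and Higd1b shared their lowest and their highest library, in the case of Higd1b only through the scaling. The 250 bases before the RefSeq start sites are shown for Acta2, Myl9 and Cnn1, the 3 of them with an entry in the promoter reference. Serum response factor binds the CArG box, a core of A and T flanked by CC and GG, and drives many contractile genes. Its part in the shared extremes was not tested. The sequences are from RefSeq (GRCm38.p6), 5′ to 3′ on the strand of the gene, and capitals mark a CArG box or a CArG-like match with 1 core base changed to G or C. Acta2 lies on the minus strand, at chr19:34255374-34255623, Myl9 on the plus strand, at chr2:156775214-156775463, and Cnn1 on the plus strand, at chr9:22099003-22099252.
Acta2: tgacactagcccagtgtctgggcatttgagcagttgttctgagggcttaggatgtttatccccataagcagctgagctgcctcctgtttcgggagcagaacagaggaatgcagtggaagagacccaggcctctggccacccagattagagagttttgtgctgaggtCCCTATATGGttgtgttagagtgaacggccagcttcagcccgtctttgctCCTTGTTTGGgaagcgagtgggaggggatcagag
Myl9: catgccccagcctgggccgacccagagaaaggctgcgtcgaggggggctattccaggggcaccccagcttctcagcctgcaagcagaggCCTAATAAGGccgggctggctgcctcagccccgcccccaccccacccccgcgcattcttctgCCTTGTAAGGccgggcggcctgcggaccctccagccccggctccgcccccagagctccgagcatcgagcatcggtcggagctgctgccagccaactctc
Cnn1: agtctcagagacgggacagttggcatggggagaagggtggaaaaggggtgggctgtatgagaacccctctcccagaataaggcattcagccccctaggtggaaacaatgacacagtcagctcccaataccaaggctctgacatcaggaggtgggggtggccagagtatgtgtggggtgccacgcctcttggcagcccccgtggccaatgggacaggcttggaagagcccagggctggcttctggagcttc

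Myl9 held 1 CArG box, CCTAATAAGG, 152 to 161 bases before the RefSeq start, and 1 CArG-like match, CCTTGTAAGG, at 90 to 99 bases. The start of Myl9 in the deposited gene list, chr2:156775420, lies inside this window, so distances from that start are shorter. Acta2 held 2 CArG-like matches, CCCTATATGG at 75 to 84 bases and CCTTGTTTGG at 25 to 34 bases, and no exact box. In the Cnn1 window these letters were not found, nor in those of Cspg4, Mylk and Notch3, the other members with an entry (6 of 10 in all). Among the 32851 upstream windows of that length, 1.47% held an exact CArG box and 7.25% a CArG-like match. The pattern reads the same on both strands. A further pair of words was searched on both strands. CATTCC, bound by TEAD factors, was found before Acta2 and Mylk, and in 12.6% of all windows. TGGGAA, the core read by the Notch partner Rbpj, was found before Acta2 alone, where it overlaps the nearer CArG-like match, and in 21.6% of all windows. A match of letters is a description and not evidence of binding.

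Mylk (chr16:34745210-35002420) was the 1 gene of the 10 whose groups did not overlap on the TMM-scaled CPM. It had 30.5, 32.8 and 29.7 CPM in Girk3 KO libraries, against 27.5, 19.0 and 24.5 CPM in WT libraries, so every Girk3 KO library was above every WT library. On the deposited RPKM the groups overlapped, at 2.95, 3.14 and 2.74 in Girk3 KO libraries and 2.89, 2.02 and 2.34 in WT libraries. Of all tested genes 20.0% had groups that did not overlap, 9.86% in that order and 10.2% in the opposite one. The log2 fold change was 0.39 ± 0.15 (SE; 95% interval 0.053 to 0.73), and it did not pass (adjusted p = 0.306 in edgeR). Its sign held in all 15 alternative settings, with log2 fold changes of 0.21 to 0.51 and adjusted p-values of 0.202 to 0.814. The negative signs of Myh11 and Tagln held in all 15 settings as well. Mylk produces a long and a short kinase in many cell types besides smooth muscle, and gene-level counts do not separate the transcripts.

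**Figure D2:**
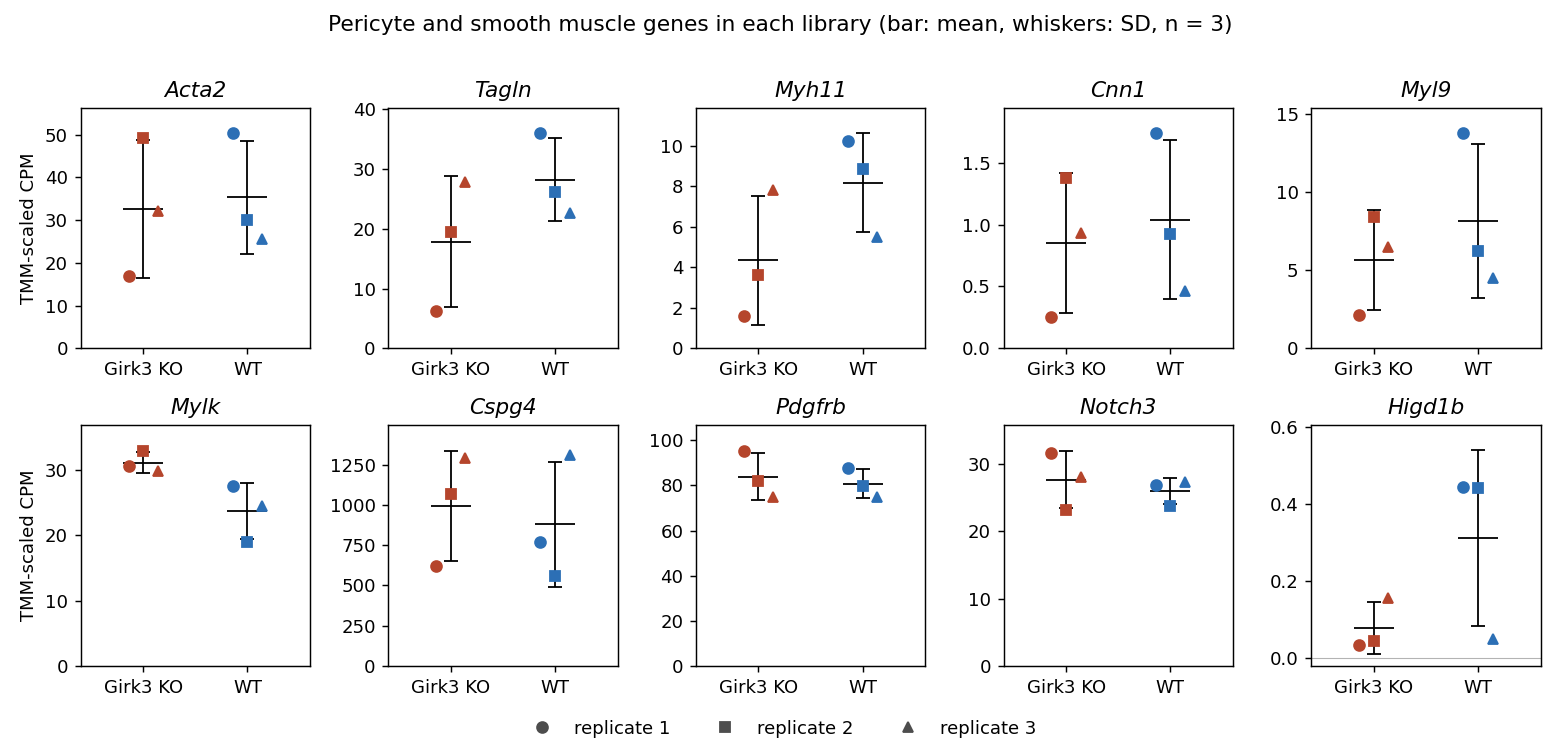
TMM-scaled CPM of each of the 10 genes in the 3 Girk3 KO and 3 WT libraries, with the mean and SD of each group and a symbol for each replicate. Girk3 KO replicate 1 is lowest for Acta2, Tagln, Myh11, Cnn1 and Myl9, and the groups are separate on this scale for Mylk alone.

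Of the 3 surface proteins, Cspg4 varied widely between libraries, and Pdgfrb and Notch3 varied little. Cspg4 (chr9:56865104-56899870) had 621, 1067 and 1291 CPM in Girk3 KO libraries, against 771, 557 and 1310 CPM in WT libraries. Both the lowest and the highest of the 6 libraries were WT, and the log2 fold change was 0.18 ± 0.34 (SE; adjusted p = 0.825 in edgeR). Its value was 0.43 without Girk3 KO replicate 1, 0.58 without WT replicate 3 and -0.069 without WT replicate 2. Pdgfrb (chr18:61045150-61085061) had 95.3, 81.8 and 74.7 CPM in Girk3 KO libraries, against 87.7, 79.9 and 74.7 CPM in WT libraries. This was the narrowest spread of the 10, with the highest library 1.28 times the lowest. The 95% interval of its log2 fold change of 0.056 was -0.22 to 0.33 (adjusted p = 0.841 in edgeR). Notch3 (chr17:32120820-32166880) had 31.7, 23.2 and 28.1 CPM in Girk3 KO libraries, against 26.8, 23.8 and 27.4 CPM in WT libraries, likewise overlapping. Its log2 fold change was 0.09 with a 95% interval of -0.23 to 0.41 (adjusted p = 0.775 in edgeR). The signs of Pdgfrb and Notch3 flipped with library size as the only scaling (-0.054 and -0.016), which put the median of all tested genes at -0.093, and without Girk3 KO replicate 1 (-0.044 and -0.019).

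Higd1b (chr11:102835849-102838040), a small hypoxia-inducible domain protein used as a pericyte marker, stood at the edge of detection. It had 2, 2 and 5 counts in Girk3 KO libraries, against 21, 24 and 2 counts in WT libraries, or 9 against 47 counts per group. WT replicates 1 and 2 held nearly all of it, and WT replicate 3 was at the level of the Girk3 KO libraries. A count of 3, taken here as the floor of detection (counting error only), is 0.0497 to 0.0875 CPM by library, over total counts without TMM factors. Of the 6 libraries, 3 had 2 counts.

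**Figure D3:**
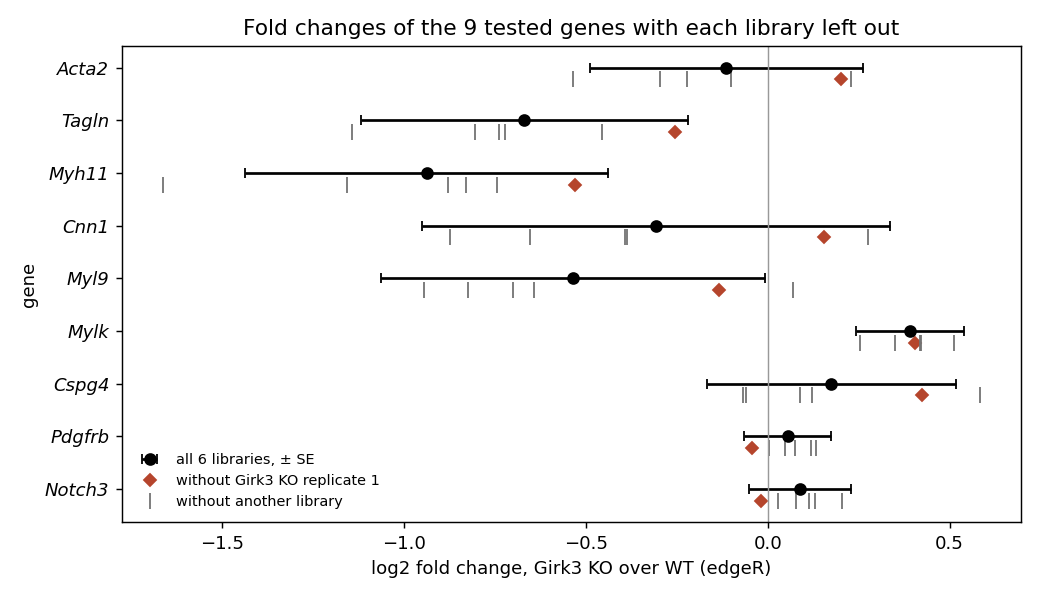
Log2 fold change of Girk3 KO over WT (edgeR) for the 9 tested genes, with its standard error from all 6 libraries, and the value with each library left out. Without Girk3 KO replicate 1, Myh11 and Tagln stay negative at -0.53 and -0.25, and Acta2 and Cnn1 turn positive at 0.20 and 0.15.

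The 10 genes differed in their profile over the libraries. Of them 6, Acta2, Tagln, Myh11, Cnn1, Myl9 and Higd1b, were lowest in Girk3 KO replicate 1 and highest in WT replicate 1 on the TMM-scaled CPM. For Higd1b both ranks rest on the scaling, since 3 libraries shared its lowest count of 2 and WT replicate 2 had its highest count. Of the 9 tested genes 5 did so (55.6%), beside 5.53% of all tested genes. The SD of log2 CPM over the 6 libraries was 0.59 for Acta2 and 0.89 to 0.996 for Tagln, Myl9, Cnn1 and Myh11, against 0.14 for Pdgfrb, 0.16 for Notch3, 0.29 for Mylk and 0.54 for Cspg4. The median over all tested genes was 0.26. Measured as the root mean square difference between centred log2 CPM profiles, the closest pairs were Notch3 with Pdgfrb (0.15), Cnn1 with Myl9 (0.20), Mylk with Pdgfrb (0.25), Notch3 with Mylk (0.26) and Myh11 with Tagln (0.26). Myh11 and Mylk were farthest apart (1.07). The contractile genes did not keep a fixed ratio to each other. Tagln per Acta2, in RPKM, was 0.411, 0.444 and 0.977 in Girk3 KO libraries and 0.802, 0.976 and 0.986 in WT libraries. Myh11 per Acta2 was 0.0252, 0.0198 and 0.0653 in Girk3 KO libraries and 0.0545, 0.0791 and 0.0574 in WT libraries. Notch3 per Pdgfrb stayed within 0.193 to 0.256 in Girk3 KO and 0.203 to 0.249 in WT libraries. Cspg4 per Pdgfrb was less even, at 4.44, 8.87 and 11.8 in Girk3 KO libraries and 5.98, 4.74 and 11.9 in WT libraries.

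Markers of other cell types were low in some of the same libraries. Endothelial markers summed to 32.3, 101 and 118 CPM in Girk3 KO libraries, against 185, 239 and 145 CPM in WT libraries, so that Girk3 KO replicate 1 was lowest there too. All 10 had a negative log2 fold change, also without Girk3 KO replicate 1. Skeletal muscle markers (10 genes headed by Acta1, Ckm and Mylpf) summed to 32.7, 12.9 and 20.4 CPM in Girk3 KO libraries and 70.7, 61.8 and 29.6 CPM in WT libraries. Erythroid markers (8 genes headed by Hbb-bt, Hba-a1 and Alas2) summed to 19.7, 61.8 and 32.8 CPM in Girk3 KO libraries, against 82.6, 113 and 27.8 CPM in WT libraries. No marker of these lists was at 0 in all libraries, and the part of these cells in the levels of the 10 genes was not tested. Summed levels of the stromal and tendon list were 8912 to 10459 CPM in Girk3 KO and 7909 to 8847 CPM in WT libraries. Even so, 6 of its 10 genes had a negative log2 fold change (median -0.22). By an unadjusted p under 0.05 in edgeR, 4 were lower and 0 higher, where 7.02% of all tested genes were lower and 7.49% higher. The summed levels were 12045 to 23396 against 10228 to 13244 CPM for osteoblast, 231 to 320 against 227 to 302 CPM for macrophage, and 85.7 to 122 against 93.6 to 334 CPM for Schwann cell markers, in Girk3 KO against WT libraries each time. The title numbers, whose meaning the labels do not give, lie below 200 for Girk3 KO replicate 1 and WT replicates 1 and 2 and above 200 for the other 3. Below 200, Acta2 had 16.9 CPM in the Girk3 KO library and a mean of 40.2 CPM in WT libraries. Above 200, it had a mean of 40.6 CPM in Girk3 KO libraries and 25.7 CPM in the WT library. Myl9 and Cnn1 were likewise lower in the Girk3 KO library below 200 and higher in both Girk3 KO libraries above it. Myh11 and Tagln had log2 ratios of -2.58 and -2.33 below 200 and of 0.056 and 0.068 above it, whereas Mylk had 0.39 and 0.35. Each side holds a group of 1 library, so these ratios have no test.

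**Figure D4:**
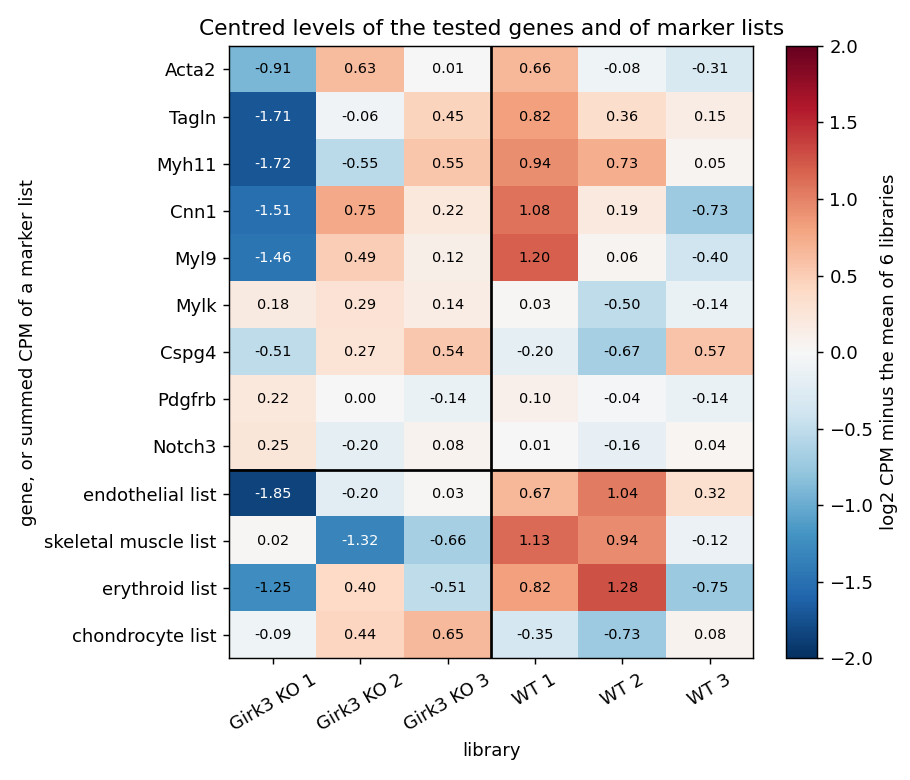
Log2 CPM minus the mean of the 6 libraries (colour and printed value) for the 9 tested genes, and the same for the summed CPM of 4 marker lists. Girk3 KO replicate 1 is at -0.91 to -1.72 for Acta2, Tagln, Myh11, Cnn1 and Myl9, at -0.51 for Cspg4, and at 0.18 to 0.25 for Mylk, Pdgfrb and Notch3.

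Of 26 further pericyte and smooth muscle genes, 24 were tested and 0 passed in edgeR. By unadjusted p under 0.05 there were 8 lower and 2 higher genes, where 7.02% of all tested genes were lower and 7.49% higher by that rule. Of the 24, 15 had a negative log2 fold change, 14 without Girk3 KO replicate 1, and the median was -0.07. The 8 lower genes were Vtn, Casq2, Kcnj8, Rgs4, Rgs5, Mcam, Abcc9 and Cald1, and the 2 higher genes were Cox4i2 and Ndufa4l2. Ndufa4l2, a mitochondrial protein used to mark pericytes, measured 259 ± 58.2 CPM in Girk3 KO and 180.0 ± 49.0 CPM in WT libraries (SD, n = 3 each), with overlapping groups (log2 fold change 0.52, and 0.34 without Girk3 KO replicate 1). Rgs5, a regulator of G protein signalling used to mark pericytes, had 17.6, 27.3 and 31.3 CPM in Girk3 KO libraries, against 51.6, 66.1 and 29.8 CPM in WT libraries. WT replicates 1 and 2 were high and WT replicate 3 lay among the Girk3 KO libraries (log2 fold change -0.96 ± 0.30 SE, adjusted p = 0.291 in edgeR). The log2 fold change of Rgs5 was -0.75 without Girk3 KO replicate 1. Kcnj8 and Abcc9 encode the pore and the sulfonylurea receptor of the potassium channel of pericytes. Kcnj8 had 0.726, 1.17 and 0.873 CPM in Girk3 KO libraries, against 3.15, 3.15 and 1.27 CPM in WT libraries, without overlap. Abcc9 had 3.90, 5.04 and 4.74 CPM in Girk3 KO libraries, against 12.4, 14.99 and 4.27 CPM in WT libraries, with WT replicate 3 inside the Girk3 KO range. Their log2 fold changes were -1.46 and -1.22 (adjusted p = 0.291 for both in edgeR), and -1.30 and -1.11 without Girk3 KO replicate 1.

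The smallest p-values of these 24 genes were those of Vtn, Casq2, Kcnj8 and Rgs4, all with groups that did not overlap. Vtn, which encodes vitronectin, had 0.101, 0.0917 and 0.218 CPM in Girk3 KO libraries, against 0.953, 1.43 and 0.439 CPM in WT libraries (log2 fold change -2.84 ± 0.58, SE). Casq2, a calcium store protein of heart and muscle, had 0.236, 0.0688 and 0.0935 CPM in Girk3 KO libraries and 1.16, 0.754 and 0.439 CPM in WT libraries (log2 fold change -2.46). Of the 10 skeletal muscle markers, 9 were negative as well. Every Girk3 KO library was below every WT library for 7 of them, beside 10.2% of all tested genes. Whether Casq2 reads came from mural cells or from muscle was not tested. The Vtn values rest on 6, 4 and 7 counts in Girk3 KO and 45, 78 and 18 in WT libraries. Those of Casq2 rest on 14, 3 and 3 counts against 55, 41 and 18, so depth limits Vtn as well as Casq2. Rgs4 had 4.12, 7.18 and 6.33 CPM in Girk3 KO libraries and 13.9, 18.7 and 7.59 CPM in WT libraries (log2 fold change -1.20). Mcam, an adhesion protein of mural and endothelial cells, measured 18.9 ± 7.13 CPM in Girk3 KO and 36.3 ± 9.16 CPM in WT libraries (SD, n = 3 each). Its log2 fold change was -0.94, and -0.65 without Girk3 KO replicate 1. In all, 6 of the 24 genes were lower in every Girk3 KO library than in any WT library and 1 was higher, beside 10.2% and 9.86% of all tested genes. The 1 higher gene was Cox4i2, a cytochrome oxidase subunit found in pericytes, at 74.5 ± 14.8 CPM in Girk3 KO and 51.3 ± 7.58 CPM in WT libraries. Over the 6 libraries Cox4i2 averaged 79.2 and Ndufa4l2 226 RPKM, against 8.37 for Rgs5 and 15.1 for Pdgfrb. Which cells gave these reads was not tested. Genes of the contractile apparatus in the list had log2 fold changes of 0.20 for Smtn, -0.074 for Tpm2, 0.032 for Synpo2, -0.050 for Lmod1 and -0.90 for Actg2, the enteric smooth muscle actin, and none passed. Without Girk3 KO replicate 1, Lmod1 was at 0.23, Actg2 at -0.43, Smtn at 0.26, Tpm2 at -0.029 and Synpo2 at 0.25. Myocd, the coactivator that directs smooth muscle genes, had 0 to 6 counts per library and was not tested, as was Kcnmb1 with 0 to 4 counts.

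**Figure D5:**
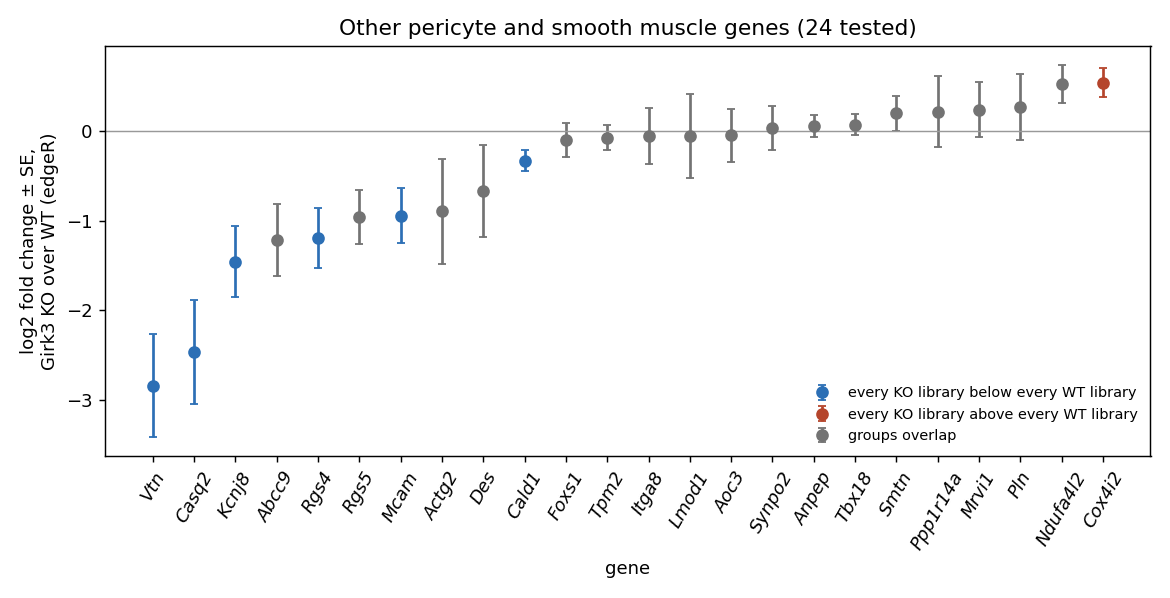
Log2 fold change of Girk3 KO over WT with its standard error (edgeR) for the 24 tested further pericyte and smooth muscle genes, in order of size, coloured by whether the groups overlap. Vtn and Casq2 lie lowest at -2.84 and -2.46, Kcnj8 at -1.46, and Cox4i2 highest at 0.54.

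The PDGF and Notch pathway had 18 tested genes besides the 2 receptors described, with 12 negative and 6 positive log2 fold changes, a median of -0.36 and 0 passing in edgeR. Without Girk3 KO replicate 1, 12 were negative and the median was -0.21. Of the 18, 6 had an unadjusted p under 0.05, all lower, where 7.02% of all tested genes were lower and 7.49% higher by that rule. Ligands of Notch were among them. Jag1 had 28.8, 28.8 and 42.0 CPM in Girk3 KO libraries, against 50.7, 59.4 and 42.6 CPM in WT libraries (log2 fold change -0.62, adjusted p = 0.291 in edgeR). Dll1 and Dll4 had log2 fold changes of -0.68 and -1.10, and like Jag1 did not overlap between groups, where 10.2% of all tested genes were lower in that way. Dll4 is an endothelial ligand, and had 2.13, 6.42 and 7.64 CPM in Girk3 KO libraries, against 10.5, 14.04 and 9.71 CPM in WT libraries. Pdgfb, the ligand that recruits pericytes through Pdgfrb, had 2.09, 5.71 and 7.20 CPM in Girk3 KO libraries, against 6.75, 6.73 and 7.98 CPM in WT libraries, so that Girk3 KO replicate 1 stood lowest. Pdgfra, the receptor of stromal cells, measured 209 ± 21.6 CPM in Girk3 KO and 261 ± 28.0 CPM in WT libraries (log2 fold change -0.32, adjusted p = 0.308 in edgeR). The summed endothelial markers were lower in every Girk3 KO library than in any WT library, and their part in these values was not tested.

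Of 22 genes of light chain phosphorylation and non-muscle actomyosin, 15 were negative (12 without Girk3 KO replicate 1) and 0 passed in edgeR, with a median of -0.10, and of -0.029 without Girk3 KO replicate 1. Rock1 and Rock2, the kinases that inhibit the light chain phosphatase, had log2 fold changes of -0.26 and -0.48 (adjusted p = 0.299 for both in edgeR). Neither overlapped between groups. Of the 22 genes, 4 were lower in every Girk3 KO library than in any WT library and 1 was higher, beside 10.2% and 9.86% of all tested genes. Rock2 measured 289.6 ± 70.2 CPM in Girk3 KO and 404 ± 17.1 CPM in WT libraries. The 1 higher gene was Calm3, a gene for the calmodulin that activates Mylk, at 80.5 ± 6.97 CPM in Girk3 KO and 68.0 ± 4.87 CPM in WT libraries. Myh14, a non-muscle heavy chain, had a log2 fold change of 0.78 with overlapping groups. Among 24 regulators and targets of serum response factor, 18 were negative, but 12 without Girk3 KO replicate 1, and 0 passed in edgeR. The median was -0.11, and 0.011 without Girk3 KO replicate 1. Srf itself had a log2 fold change of -0.10. The smallest p-values were those of Tagln2 (-0.52), Cald1 (-0.33), Fhl2 (-0.60) and Vcl (-0.46), with adjusted p-values of 0.291 to 0.355 in edgeR. Cald1, which encodes the actin-binding caldesmon, had 98.7, 109.8 and 112 CPM in Girk3 KO libraries, against 138, 147 and 117 CPM in WT libraries, without overlap. Of the 24 genes, 4 were lower in that way and 0 higher, beside 10.2% and 9.86% of all tested genes.

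The genes whose centred profile lay closest to the mean profile of the 9 tested members, among 12859 candidates (mean log2 CPM of 1 or more), were Nr4a1, Irf5, AC161246.1, Cenpt, Avil, Gm24564, Slc40a1 and Klf8. Their root mean square differences over the 6 libraries were 0.08 to 0.12, and 70 candidates lay within 0.2. Nr4a1, an immediate early nuclear receptor, had 57.0, 100.3 and 109 CPM in Girk3 KO libraries, against 119, 88.8 and 84.7 CPM in WT libraries. The mean profile itself was lowest in Girk3 KO replicate 1, at -0.80, and highest in WT replicate 1. It merges unlike members. In Girk3 KO replicate 1, Myh11 and Tagln were at -1.72 and -1.71, but Notch3, Pdgfrb and Mylk were at 0.25, 0.22 and 0.18. A gene close to this mean is thus not close to each member.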

How the data were processed

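Polyadenylated RNA was sequenced in 3 Girk3 KO and 3 WT libraries, grouped by the genotype label and numbered in deposit order, so that a shared number pairs no libraries. Libraries within a group are biological replicates per the series design. The deposited table gives counts per gene, not normalized, per the file headers, and RPKM, for which the authors corrected for gene length and library size, per the labels' protocols. Here 100% of 138899 nonzero RPKM values equalled the count over the column total and a length 1 base longer than listed (relative tolerance 0.001). STAR 2.5.2b, bcl2fastq 2.19.0 and build mm10 are named in the submitters' processing notes. No source used here gives the counting tool, annotation or strand setting.

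Counts were tested with edgeR 4.0.16 in R 4.3.3 (quasi-likelihood F-test, genotype alone, TMM factors), after filterByExpr with a minimum count of 10 and total of 15, which left 17554 genes. Benjamini-Hochberg adjustment ran over all of them, threshold 0.05. Standard errors are the absolute log2 fold change over the square root of F, and 95% intervals use the moderated degrees of freedom. Log2 CPM had a prior count of 2. The fit was tested on simulated counts with known changes. These counts were drawn independently for each gene and library, so the simulation does not cover shifts that many genes of a library share. Alternatives were other scalings and filters, DESeq2 1.42.0, limma 3.58.1 (voom, and log2 of RPKM plus 0.1 or 1), a covariate for title numbers above 200, and each library left out. Members, lists and tests were chosen with earlier results of these data known. Named were all 10 members, from each of 4 pathway lists the 4 genes with the smallest p, at most the first 3 of a marker list (given for 4 of the 8 lists), and the 8 genes of closest profile. Other list genes (Rgs5, Abcc9, Mcam, Cox4i2, Ndufa4l2, Smtn, Tpm2, Synpo2, Lmod1, Actg2, Myocd, Kcnmb1, Pdgfb, Srf, Myh9) were named for their role, after their values were seen.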

Additional observations from a re-analysis of the deposited data

How the results depend on the processing

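The count of 0 members passing held in all 15 alternative settings. The number of all genes passing did not: against 1 in edgeR it was 0 with library size only, with the title number covariate, in limma-voom and on log2(RPKM + 0.1) and log2(RPKM + 1), 53 with no filter, 340 in DESeq2, and 0 to 74 with 1 library left out, the 74 without WT replicate 3. The median log2 fold change of the tested members, -0.11, ranged from -0.53 (without Girk3 KO replicate 2) to 0.11 (without WT replicate 1). Under the alternatives, 16 member values changed sign and 118 did not, all of genes that did not pass. Those of Notch3 and Pdgfrb were -0.016 and -0.054 with library size only, -0.026 and -0.056 on log2(RPKM + 0.1), and -0.019 and -0.053 on log2(RPKM + 1). Cspg4 was at -0.12 with the title number covariate. With 1 library left out, values ranged from -0.53 to 0.23 for Acta2, -0.87 to 0.27 for Cnn1, -0.94 to 0.069 for Myl9, -0.069 to 0.58 for Cspg4, -0.019 to 0.20 for Notch3 and -0.044 to 0.13 for Pdgfrb. Acta2 and Cnn1 turned positive without Girk3 KO replicate 1 and without WT replicate 1, Myl9 without WT replicate 1, and Notch3 and Pdgfrb negative without Girk3 KO replicate 1. Cspg4 turned negative without Girk3 KO replicate 3 and without WT replicate 2. The stricter filter dropped Cnn1. Causes of these shifts were not tested. The counts of lists without Girk3 KO replicate 1 were added after seeing the data. No paired analysis was possible because the groups share no title number, and the replicate numbers follow deposit order. Cnn1 and Higd1b, with 256 and 56 counts in all, are limited by depth, as are Vtn and Casq2 of the further genes, with 158 and 134.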
